A study of Mus musculus with 16 samples.

Results

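The genes described here are 44 genes of DNA replication and S phase, taken by symbol from a fixed list. No measured value served as a cutoff, but the list was chosen with earlier results of these data known. All 44 were among the 12321 genes of the expression table and all passed the filter on low values. Messenger RNA was measured in 16 libraries of LKR10 cells, a line from a mouse lung adenocarcinoma. All cells had been infected with a pLKO lentivirus that carried a short hairpin RNA, kept in puromycin (4 µg/ml) during 48 h and then cultured another 96 h. The 4 groups, each of 4 libraries, were a hairpin against GFP (shGFP, the control) or against Ankrd35 (shAnkrd35), each in attached monolayer culture (2D) or in 0.5% methylcellulose (3D), a viscous medium in which cells grow without a surface to attach to. The labels give 1 cell line and no hairpin sequence. They do not state that replicates came from different cultures, and p-values therefore cover library-to-library spread that could be technical.

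DNA replication begins in G1, when the origin recognition complex, Cdc6 and Cdt1 load the MCM helicase onto origins, a step called licensing. In S phase Cdc45 and the GINS complex switch the helicase on, primase and polymerase alpha start each strand, and polymerases delta and epsilon extend it with the sliding clamp PCNA. Cyclin E with its kinase and the E2F transcription factors drive entry into S phase, and E2F proteins are known to bind the promoters of many of these genes. Tumour lines keep these genes expressed while they divide, and their messenger RNA levels rise and fall with the share of cells in late G1 and S phase.

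The libraries held 13.8 to 28.7 M reads assigned to genes. Ankrd35 itself was too low to settle the hairpin labels: its level was 0.187 ± 0.137 CPM (reads of the gene relative to the size of the library) with shAnkrd35 against 0.219 ± 0.124 with shGFP in 2D (SD, n = 4; p = 0.657, exact two-sided permutation test). Methylcellulose cultures had 0.501 ± 0.0929 against 0.597 ± 0.0546 CPM (SD, n = 4; p = 0.143 by the same exact test). The libraries are therefore called labelled shAnkrd35, and hairpin directions depend on the labels alone. Replicate 1 of 2D shAnkrd35 stood apart, with the lowest library quality weight in limma of the 16 (0.171), and counts without it are given beside the main ones. The level of GC-rich against GC-poor genes differed between libraries. Its slope, in log2 units per 10 percentage points of GC content, ran in 2D from -0.101 to 0.288 (shGFP) or from 0.260 to 0.528 (shAnkrd35), and in 3D from -0.295 to -0.233 (shGFP) or from -0.265 to -0.121 (shAnkrd35). Of 6 epithelial markers 5 were measured (summed level 5261 to 8553 CPM), and of 4 lung epithelial markers 1, Foxa2. The leukocyte genes Cd68 and Cd14, 2 of 5 on their list, summed to 39.6 to 41.1 CPM (shGFP) or 75.5 to 83.1 (shAnkrd35) in 2D, and 115 to 122 (shGFP) or 129.5 to 143.5 CPM (shAnkrd35) in 3D. Ptprc, Adgre1 and Csf1r, the other genes of that list, were not in the expression table. Of 6 fibroblast markers 4 were measured (11.2 to 43.4 CPM) and of 4 endothelial markers 0. The part of GC content and of these marker levels in the results was not tested, except where values with the GC trend removed are given.

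Promoters of 37 of the 44 genes matched the RefSeq promoter table (mouse build GRCm38.p6, which is mm10). They are shown because many of these genes are known E2F targets. The searched motifs were the E2F-type letters TTTCCCGC and TTTGGCGC and, separately, CCAAT, on both strands, in the 250 bases before to 50 bases after the annotated start. An E2F-type match was found for 11 of the 37 genes (29.7%), against 1.80% of 27018 genes in the promoter table, which include genes not measured here. With the 250 bases before the start alone it was 7 of 37 (18.9%) against 1.51%. CCAAT was found for 24 of 37 (64.9%) against 41.1%. A match is a description of the letters and not a measured binding site. Only these exact letters were searched, so a gene without a match may still be an E2F target. A stretch of 80 bases around a match is printed 5′ to 3′ on the strand of the gene, with the match in capitals (GCGCCAAA is TTTGGCGC read on the other strand), for 4 genes whose stretch overlaps no annotated exon: the helicase subunits Mcm5 (chr8:75109324-75109403, plus strand) and Mcm6 (chr1:128359709-128359788, minus strand), the polymerase alpha catalytic subunit Pola1 (chrX:93632250-93632329, minus strand) and the ubiquitin ligase adaptor Dtl (chr1:191575545-191575624, minus strand).
Mcm5: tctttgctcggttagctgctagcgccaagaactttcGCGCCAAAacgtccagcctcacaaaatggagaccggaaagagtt
Mcm6: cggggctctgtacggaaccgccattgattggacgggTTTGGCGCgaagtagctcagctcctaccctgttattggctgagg
Pola1: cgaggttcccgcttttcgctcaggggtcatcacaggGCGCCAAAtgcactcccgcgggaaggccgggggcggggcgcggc
Dtl: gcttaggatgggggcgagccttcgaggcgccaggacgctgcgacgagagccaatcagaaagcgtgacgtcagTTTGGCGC

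These 4 genes carried the same E2F-type letters and did not move alike with the label shAnkrd35 in 2D: the log2 fold change was 0.28 in Mcm5, 0.12 in Mcm6, -0.96 in Pola1 and -0.075 in Dtl. Over all genes with a matched promoter, 6 of the 11 with an E2F-type match rose in that comparison and 1 fell (median log2 fold change 0.27). Of the 26 without a match 16 rose and 1 fell (median 0.22). In the same comparison 29.0% of all genes tested rose and 28.8% fell.

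The 44 genes were highest in 2D libraries labelled shAnkrd35. Together they took 0.384% ± 0.00867 of all reads there, against 0.329% ± 0.00826 with shGFP in 2D. In methylcellulose the share was 0.320% ± 0.00684 (shGFP) and 0.324% ± 0.00316 (shAnkrd35; SD, n = 4). The 2D shAnkrd35 libraries ranged from 0.374% to 0.394% and overlapped no other group. In 34 of the 44 genes the highest of the 4 group means was that of 2D shAnkrd35. The share of all genes tested with their highest mean in that group was not counted. In bulk RNA, a change in the share of cells in S phase cannot be told apart from a change in the RNA that each such cell holds.

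**Figure D1:**
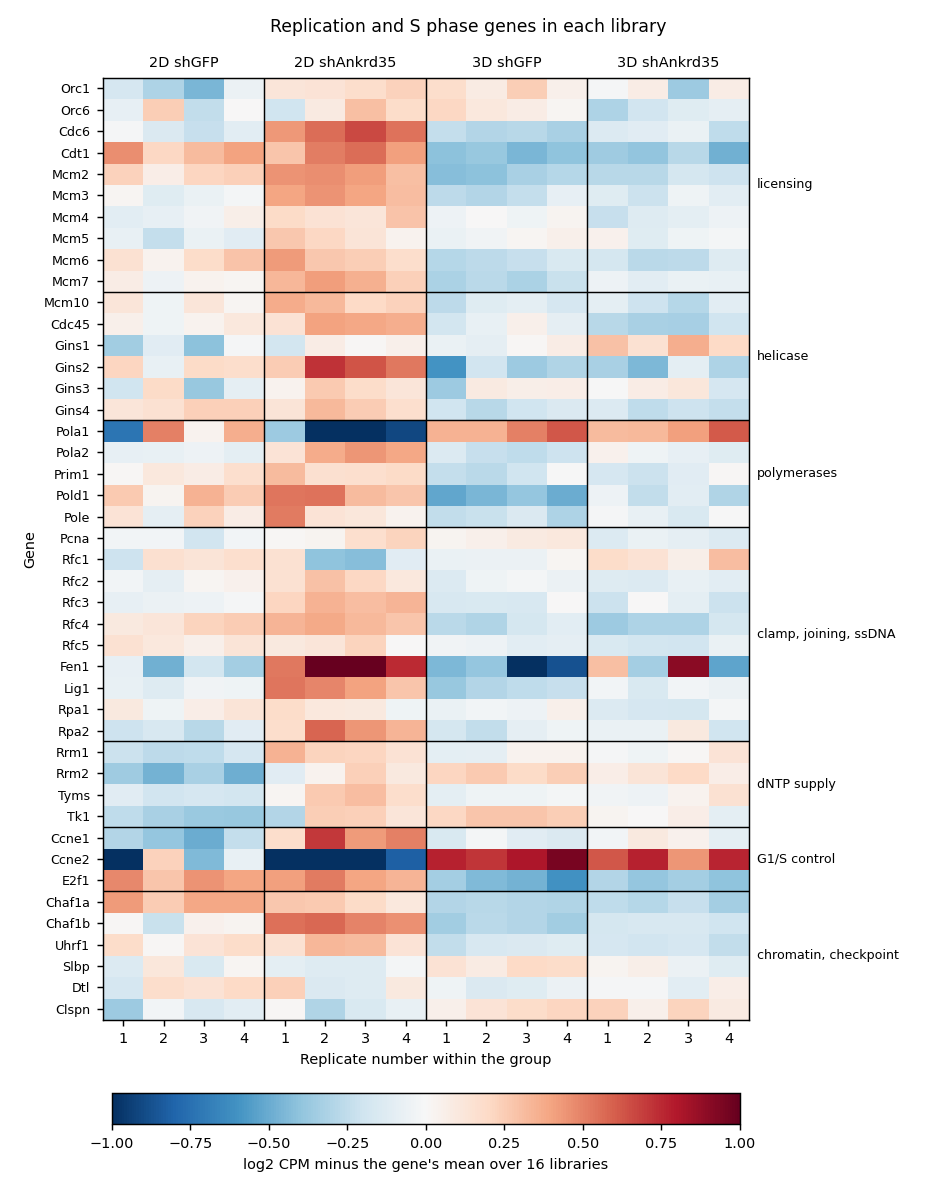
Level of the 44 replication and S phase genes (rows, by role) in each of the 16 libraries (columns, by group and replicate), as log2 CPM minus the gene's mean over the 16 libraries, with colours limited to -1 and 1. The 2D shAnkrd35 columns are red in most rows, and Pola1, Ccne2, Rfc1, Slbp and Clspn lie below their mean in at least 3 of its 4 libraries.

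With the label shAnkrd35 in 2D, 25 of the 44 genes rose, 3 fell and 16 were not called, at an adjusted p under 0.05 in limma over 12320 genes. That is 56.8% higher and 6.82% lower, against 29.0% higher and 28.8% lower among all genes tested. The median log2 fold change was 0.21, against 0.01 over all genes. In 23 genes all 4 shAnkrd35 libraries lay above all 4 shGFP libraries (22.3% of all genes), and in 0 genes below them (17.5%). Leaving out replicate 1 of 2D shAnkrd35 gave 26 higher and 4 lower (all genes 3861 and 3922). Removing a trend with gene length and GC content gave 26 and 3 (all genes 3252 and 3708). By that removal the rises of Mcm2 (0.094, adjusted p = 0.07), Pold1 (0.062, adjusted p = 0.378) and Rfc4 (0.14, adjusted p = 0.11) and the falls of Ccne2 and Chaf1a lost their calls, so that other genes make up these like totals. Calls gained were rises of Mcm6 (0.14, adjusted p = 0.0149), Prim1 (0.24, adjusted p = 0.00192), Pole (0.21, adjusted p = 0.00487) and Dtl and falls of Gins4 (-0.23, adjusted p = 0.00273) and E2f1.

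In 3D the same label went with fewer changes: 5 genes rose, 4 fell and 35 were not called, with a median of 0.03. Those shares, 11.4% and 9.09%, lay below the 15.0% higher and 14.6% lower of all genes tested. The groups did not overlap for 8 genes in the higher direction (18.8% of all genes) and for 5 in the lower (19.4%). Without replicate 1 of 2D shAnkrd35, which shares in the estimate of spread, the counts were 7 and 5 (all genes 2222 and 2107). With the trend of GC content and length removed they were 8 and 3 (all genes 2013 and 2130). Leaving out 1 library moved a count by over 1.5 times for replicates 1, 3 and 4 of 3D shGFP and for all 4 replicates of 3D shAnkrd35, to 3 higher and 1 lower at the least (without replicate 3 of either group).

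Whether the hairpin effect differed between 3D and 2D was itself tested, as 3D minus 2D. It was called negative in 21 of the 44 genes and positive in 2 (Pola1 and Rfc1), against 18.6% negative and 17.1% positive among all genes tested. By sign alone 35 of the 44 lay below 0 and 9 above (all genes 6123 and 6197). The median difference was -0.24, against 0.00 over all genes. Pcna, Tk1 and Cdc45 were the only genes of the 44 that rose in 2D and fell in 3D, and Mcm7, Pold1, Fen1 and Lig1 rose in both. The falls of Tk1 and Cdc45 in 3D were lost without some single libraries, and that of Pcna with the GC and length trend removed. The rises of Fen1 in 3D and Pold1 in 2D were also lost without some single libraries, and that of Pold1 with the trend removed. Both positive calls were lost without replicate 3 or 4 of 2D shGFP or 2 or 3 of 2D shAnkrd35. Both were also lost without replicate 1 or 2 of 3D shGFP or 4 of 3D shAnkrd35. That of Pola1 alone was lost without replicate 2 of 2D shGFP, 4 of 2D shAnkrd35 or 3 of 3D shGFP. Leaving out replicate 1, 2 or 3 of 3D shAnkrd35 also ended Pola1 alone. Chaf1a gained a positive call without replicate 2 of 2D shGFP, 1 of 2D shAnkrd35 or 4 of 3D shAnkrd35. With the GC and length trend removed the negative calls of Orc6 (-0.24, adjusted p = 0.116) and Rfc4 (-0.13, adjusted p = 0.37) were lost. That of Rfc4 was also lost without replicate 1, 2 or 3 of 2D shGFP, replicate 1, 2 or 3 of 2D shAnkrd35, replicate 1, 3 or 4 of 3D shGFP or replicate 1, 2 or 3 of 3D shAnkrd35 (-0.25 to -0.20, adjusted p = 0.052 to 0.102). Removing the GC and length trend also ended the negative calls of Pola2 and Lig1. In all 4 were then called positive and 18 negative (all genes 2262 and 2021). Without replicate 1 of 2D shAnkrd35 the counts were 3 positive and 20 negative (all genes 2852 and 2897). Because both hairpin effects enter the difference, its values are not further evidence for either.

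**Figure D2:**
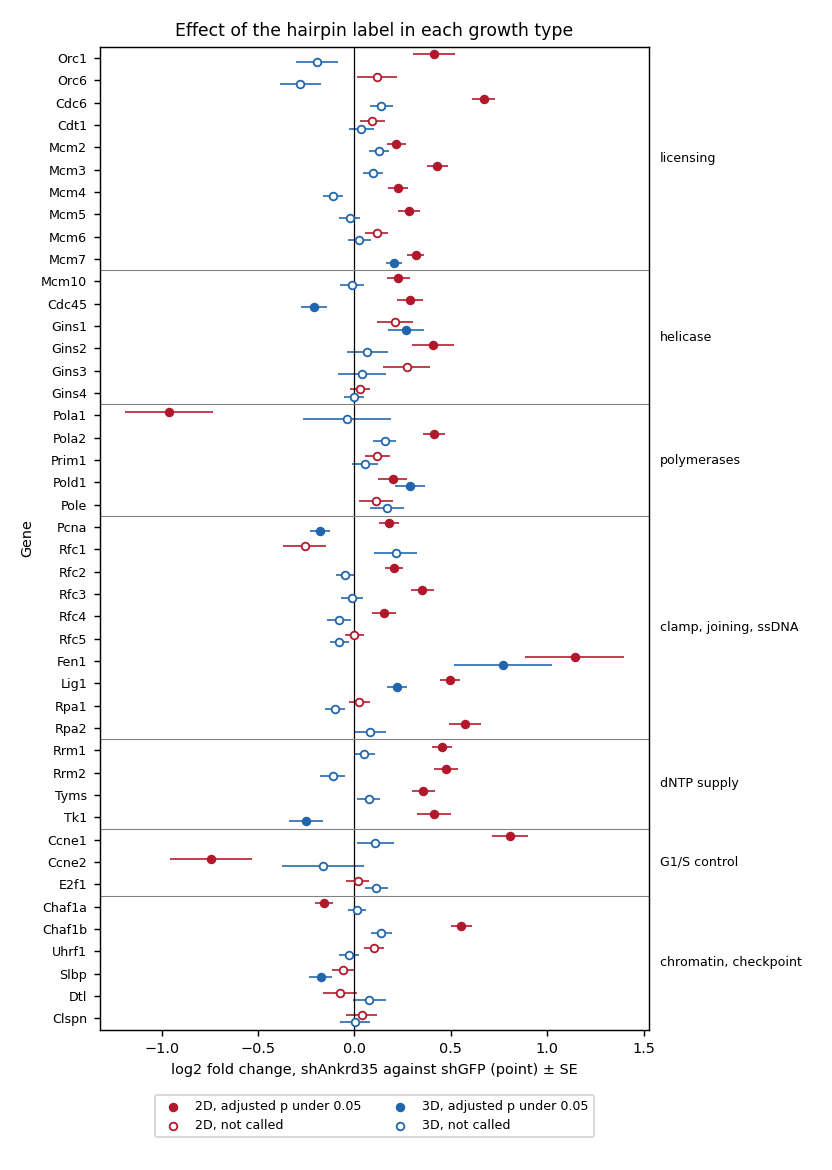
Log2 fold change of shAnkrd35 against shGFP (points) with its SE (bars) for each of the 44 genes, in 2D (red) and in 3D (blue). Filled points have an adjusted p under 0.05, of which 25 lie right of 0 and 3 left of it in 2D, and 5 right and 4 left in 3D.

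Growth in methylcellulose was compared with monolayer within each hairpin. With shGFP, 9 of the 44 genes rose in 3D and 19 fell, against 35.2% higher and 32.1% lower among all genes tested, and the median was -0.12 against 0.03. The groups did not overlap for 9 genes upwards (33.3% of all genes) and for 19 downwards (31.6%). That split depended on scaling. With libraries scaled to total reads alone the median of all genes moved from 0.03 to 0.15, that of the 44 genes moved from -0.12 to 0.00, and the calls became 14 higher and 14 lower. Among all genes tested that scaling changed 4331 higher and 3954 lower to 5569 and 2927. Without replicate 1 of 2D shAnkrd35 the calls were 12 higher and 21 lower (all genes 4511 and 4138). With the GC and length trend removed they were 9 and 15 (all genes 4597 and 3737). Total-read scaling ended the falls of Mcm3 (-0.053, adjusted p = 0.354), Mcm10 (-0.099, adjusted p = 0.136), Rfc5 (-0.061, adjusted p = 0.305) and Lig1 (-0.098, adjusted p = 0.0725). Removing the trend also ended these 4 falls and those of Cdc6 and Pole, and the rises of Rrm1 and Slbp.

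With shAnkrd35, 5 genes rose in 3D and 33 fell, against 34.4% higher and 36.0% lower among all genes. The median was -0.36 against -0.02, and groups did not overlap for 4 genes upwards (29.9% of all genes) and 29 downwards (29.3%). With total-read scaling the calls were 6 higher and 28 lower among the 44 genes, and 4999 and 3469 among all genes in place of 4235 and 4441. Without replicate 1 of 2D shAnkrd35 the counts were 4 and 34 (all genes 4412 and 4630). With the GC and length trend removed they were 6 and 28 (all genes 4809 and 3514). Removing the trend ended the falls of Gins4, Rfc5, Fen1, Tyms and Ccne1, and total-read scaling those of Orc6 (-0.19, adjusted p = 0.148), Mcm5 (-0.11, adjusted p = 0.0577), Pole (-0.17, adjusted p = 0.0642), Pcna (-0.13, adjusted p = 0.0556) and Tyms (-0.083, adjusted p = 0.25). The fall of Pole was -0.15, adjusted p = 0.0395 without replicate 1 of 2D shAnkrd35, against -0.26 with it. The 2D shAnkrd35 group enters both this comparison and the hairpin comparison in 2D, so a high level there appears in both. GC content also ran with these values. Among the 22 genes with the lower GC content (up to 49.1%) the median fold change in 3D was 0.10 with shGFP and -0.21 with shAnkrd35, and among the 22 with the higher (from 49.2%) it was -0.29 and -0.49.

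**Figure D3:**
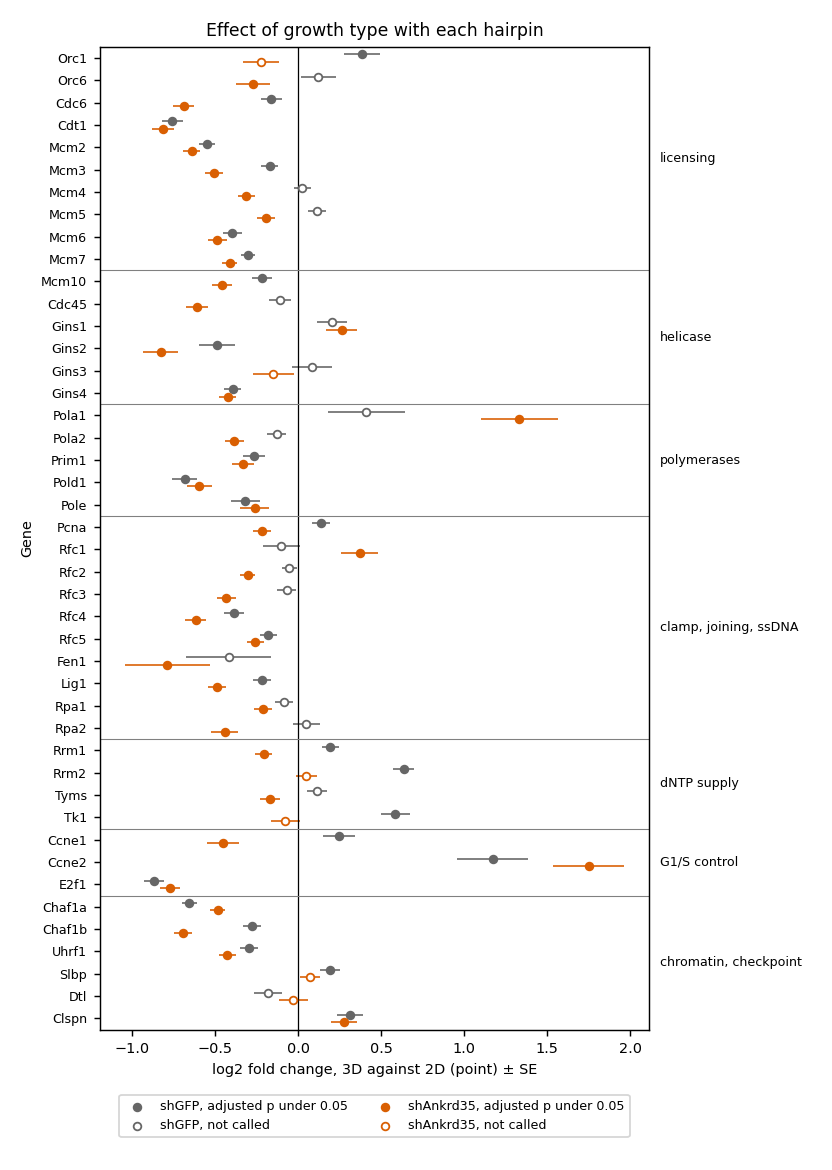
Log2 fold change of 3D against 2D (points) with its SE (bars) for each of the 44 genes, with shGFP (grey) and with shAnkrd35 (orange). Filled points have an adjusted p under 0.05. E2f1, Cdt1, Mcm2, Chaf1a, Pold1 and Gins2 lie far left with both hairpins, Gins2 farthest with shAnkrd35, and Ccne2 lies farthest right with both.

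Most licensing genes rose in 2D with the label shAnkrd35, and most fell in 3D against 2D. Of these 10 genes 7 rose and 0 fell in the 2D hairpin comparison, 1 rose and 0 fell in 3D, and the difference was called negative in 6. Among all genes tested 29.0% rose and 28.8% fell in the first, and 15.0% and 14.6% in the second. For the difference 18.6% of all genes were called negative. The 1 rise in 3D is no more than the background. In methylcellulose 1 rose and 6 fell with shGFP (10% and 60%, all genes 35.2% and 32.1%). With shAnkrd35 0 rose and 9 fell there (0% and 90%, all genes 34.4% and 36.0%). Cdc6 (chromosome 11, 98907801 to 98923940, plus strand), the ATPase that brings the helicase to the origin complex, had the smallest p of the 44 genes in the 2D comparison. Its level in 2D was 29.2, 26.5, 25 and 27.3 CPM in shGFP libraries 1 to 4 and 39.6, 43.2, 46.5 and 42.8 in shAnkrd35 libraries. The lowest shAnkrd35 library thus lay above the highest shGFP library (43 ± 2.81 against 27 ± 1.73 CPM, SD, n = 4, log2 fold change 0.67 ± 0.061, adjusted p = 1.52e-07). The 3D libraries had 24.8, 24, 24.2 and 23.4 CPM with shGFP and 26.7, 27.1, 28.1 and 24.5 with shAnkrd35, ranges that overlap (0.14 ± 0.061, adjusted p = 0.0952). The difference of the 2 effects was -0.53 ± 0.086, adjusted p = 0.000271. With shAnkrd35 Cdc6 fell in 3D (-0.69 ± 0.061, adjusted p = 4.52e-08). Its smaller fall with shGFP (-0.16 ± 0.061, adjusted p = 0.0282) was lost without replicate 1 or 4 of 2D shGFP or replicate 2 or 4 of 3D shGFP (-0.16 to -0.12, adjusted p = 0.0542 to 0.102) and with the GC trend removed (-0.019, adjusted p = 0.809) or scaling to total reads (-0.042, adjusted p = 0.595).

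Cdt1 (chromosome 8, 122568015 to 122573554, plus strand), the loader that works with Cdc6, was not called for the hairpin in either growth type (0.092 in 2D, 0.035 in 3D). In 2D it passed as a rise without replicate 1 of 2D shAnkrd35 (0.15, adjusted p = 0.0422). With library quality weights, or without both 2D libraries numbered 1, it passed as well. Cdt1 fell in 3D with both hairpins. Its levels were 104, 87.1, 94.3 and 99.9 CPM in 2D shGFP and 56.8, 58, 55.1 and 57.3 in 3D shGFP (-0.76 ± 0.064, adjusted p = 2.05e-08). With shAnkrd35 they were 91.6, 108, 111 and 100.4 CPM in 2D and 59, 57.5, 62.2 and 54.2 in 3D (-0.82 ± 0.064, adjusted p = 1.17e-08), and in both cases every 3D library lay below every 2D library. The origin complex subunit Orc1 rose in 2D with shAnkrd35 (0.41 ± 0.11, adjusted p = 0.00419) and, with shGFP, in 3D (0.38 ± 0.11, adjusted p = 0.00524). Orc6 was called only as a fall in 3D with shAnkrd35 (-0.27 ± 0.10, adjusted p = 0.027) and as a negative difference (-0.40 ± 0.15, adjusted p = 0.0456). That fall was lost without replicate 3 or 4 of 2D shAnkrd35 or replicate 1 or 2 of 3D shAnkrd35 (-0.27 to -0.20, adjusted p = 0.0528 to 0.102), and the difference without replicate 1, 3 or 4 of 2D shGFP, replicate 2, 3 or 4 of 2D shAnkrd35, replicate 1, 2, 3 or 4 of 3D shGFP or replicate 1, 2, 3 or 4 of 3D shAnkrd35 (-0.42 to -0.32, adjusted p = 0.0516 to 0.102). Orc6 shares exonic sequence with Vps35 on the opposite strand, and the use of strand in counting is not given in the sources used here.

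The 6 subunits of the MCM helicase ring were among the more abundant of the 44 genes, at 33.2 to 56.4 CPM per kb of exonic length as means over 16 libraries. In 2D 5 of the 6 rose with shAnkrd35, by 0.22 (Mcm2) to 0.43 (Mcm3) on the log2 scale, where 29.0% of all genes rose. Mcm6 had 0.12 ± 0.059, adjusted p = 0.106. Mcm3 (chromosome 1, 20802968 to 20820312, minus strand) stood at 151, 137, 142 and 147 CPM with shGFP and 196, 204, 196 and 184 with shAnkrd35 in 2D, with no overlap (0.43 ± 0.053, adjusted p = 4.11e-06). In 3D it stood at 124, 122, 126 and 141 CPM and 137, 128, 145 and 138 CPM, with overlap (0.097 ± 0.053, adjusted p = 0.186). Mcm7 (chromosome 5, 138164583 to 138172422, minus strand) was the only subunit called in both growth types. It measured 259, 238, 253 and 250 CPM with shGFP against 311, 330.1, 315 and 291 with shAnkrd35 in 2D, and 198, 205, 198 and 211 CPM against 238, 229, 235 and 234 for the same order in 3D. The shAnkrd35 libraries lay above all shGFP libraries in 2D (0.32 ± 0.043, adjusted p = 1.23e-05) and in 3D (0.20 ± 0.043, adjusted p = 0.00158), and the difference of the effects was -0.11 ± 0.061, adjusted p = 0.154. Exons of Mcm7 overlap Ap4m1 and Cops6 on the opposite strand.

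Mcm2 (chromosome 6, 88883474 to 88898780, minus strand) was lower in 3D with both hairpins. Its levels were 264, 236, 262 and 265 CPM in 2D shGFP and 168, 169.8, 179.5 and 184 in 3D shGFP, while the shAnkrd35 libraries had 307, 311, 300.3 and 277 CPM in 2D and 185, 186, 199 and 196 in 3D. The groups did not overlap, and the log2 fold changes were -0.55 ± 0.051, adjusted p = 6.09e-08 with shGFP and -0.64 ± 0.051, adjusted p = 1.26e-08 with shAnkrd35. Mcm6 and Mcm7 also fell with both hairpins (-0.40 and -0.30 with shGFP, -0.49 and -0.41 with shAnkrd35). Mcm4 and Mcm5 fell only with shAnkrd35 (-0.31 and -0.19), and their difference of effects was negative (-0.34 ± 0.07, adjusted p = 0.00183 and -0.31 ± 0.077, adjusted p = 0.00667). The fall of Mcm5 turned to 0.052, adjusted p = 0.32 when the GC and length trend was removed.

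Of the 6 genes that activate the helicase, 3 rose in 2D with shAnkrd35 (Gins2, Cdc45 and Mcm10) and 0 fell. These shares of 50% and 0% stand beside 29.0% and 28.8% of all genes. In 3D 1 rose and 1 fell (16.7% each, near the 15.0% and 14.6% of all genes). Cdc45 (chromosome 16, 18780447 to 18811987, minus strand), which completes the active helicase, had the smallest p of the role in 2D. It measured 24.7, 23.1, 24.4 and 25.6 CPM with shGFP and 26.4, 31.4, 31.2 and 30.7 with shAnkrd35 in 2D (0.29 ± 0.067, adjusted p = 0.00156), with replicate 1 lowest in the shAnkrd35 group and yet above every shGFP library. In 3D it measured 20.9, 22.6, 24.7 and 22.4 CPM with shGFP and 19.6, 19, 18.9 and 20.7 with shAnkrd35, where the order was turned round without overlap (-0.21 ± 0.067, adjusted p = 0.0249). The difference was -0.50 ± 0.094, adjusted p = 0.000908. That call in 3D was lost without replicate 3 of 3D shGFP or replicate 2 or 3 of 3D shAnkrd35 (-0.20 to -0.17, adjusted p = 0.0628 to 0.0929). Exons of Cdc45 overlap those of Ufd1 on the opposite strand.

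The 4 subunits of GINS, which holds the helicase together with Cdc45, did not move as one. Gins2 rose in 2D with shAnkrd35 (0.41 ± 0.11, adjusted p = 0.004) and fell in 3D with both hairpins (-0.49 and -0.83). Gins4 fell in 3D with both (-0.39 and -0.42) and was at 0.029 for the hairpin in 2D. Gins1 rose with shAnkrd35 in 3D (0.27 ± 0.092, adjusted p = 0.036) and in 3D against 2D with shAnkrd35 (0.26 ± 0.092, adjusted p = 0.0174). The first of these calls was lost with total-read scaling (0.25, adjusted p = 0.0549) and without replicate 1, 2 or 3 of 3D shGFP or replicate 1 or 3 of 3D shAnkrd35 (0.23 to 0.28, adjusted p = 0.061 to 0.102), and the second without replicate 1 of 2D shAnkrd35 or replicate 3 of 3D shAnkrd35 (0.21 to 0.23, adjusted p = 0.0532 to 0.0572). Gins3, at 7.45 ± 1.28 CPM in 2D shGFP (SD, n = 4), was called in none of the 5 comparisons. It passed as a rise for the hairpin in 2D with library quality weights and without replicate 2 of 2D shGFP or 1 of 3D shGFP. Mcm10, which helps start unwinding, rose in 2D with shAnkrd35 (0.23 ± 0.061, adjusted p = 0.00445) and fell in 3D with both hairpins (-0.22 and -0.46). Its negative difference (-0.24 ± 0.086, adjusted p = 0.0398) was lost without replicate 2 or 4 of 2D shGFP, replicate 1 or 2 of 2D shAnkrd35, replicate 2, 3 or 4 of 3D shGFP or replicate 2 or 3 of 3D shAnkrd35 (-0.24 to -0.20, adjusted p = 0.0545 to 0.0797).

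Among the primase and polymerase genes, 2 of 5 rose in 2D with shAnkrd35 and 1 fell (40% and 20%, all genes 29.0% and 28.8%). The one that fell was Pola1 (chromosome X, 93304767 to 93632155, minus strand), the catalytic subunit of polymerase alpha, while Pola2 (chromosome 19, 5940542 to 5964202, minus strand), the regulatory subunit of the same enzyme, rose. Pola2 stood at 67.3, 67.7, 69 and 66.6 CPM with shGFP and 78.5, 92.5, 97 and 93.3 with shAnkrd35 in 2D (0.41 ± 0.057, adjusted p = 1.63e-05), without overlap. In 3D Pola2 stood at 64.9, 60.8, 59.9 and 61.8 CPM and 73.4, 69.4, 67.2 and 65.7 CPM (0.16 ± 0.057, adjusted p = 0.0501), again without overlap but short of the threshold. Its difference of effects (-0.26 ± 0.081, adjusted p = 0.0225) was lost without replicate 3 of 2D shAnkrd35 (-0.22, adjusted p = 0.0534) and with the GC trend removed (-0.18, adjusted p = 0.0715).

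Pola1 stood at 31.6, 74.5, 53.6 and 67.6 CPM with shGFP and 40.8, 23.1, 22.5 and 27.8 with shAnkrd35 in 2D. The groups overlap, since replicate 1 was the lowest shGFP library and the highest shAnkrd35 library (-0.96 ± 0.23, adjusted p = 0.00264). The same replicate 1 of 2D shGFP had the highest GC slope of its group (0.288), and replicate 1 of 2D shAnkrd35 the lowest of its group (0.260). Transcripts of Pola1 are low in GC content (41.5%). With the GC and length trend removed the fall was smaller and kept its call (-0.60, adjusted p = 0.005). In 3D Pola1 stood at 66.7, 66.9, 74.5 and 80.7 CPM with shGFP and 65.4, 65.6, 69.9 and 80.3 with shAnkrd35 (-0.039 ± 0.23, adjusted p = 0.925). It rose in 3D with shAnkrd35 (1.33 ± 0.23, adjusted p = 0.000117), where every 3D library lay above every 2D library, and by 0.71, adjusted p = 0.00105 with the trend removed. The positive difference (0.92 ± 0.33, adjusted p = 0.0398) was lost without replicate 2, 3 or 4 of 2D shGFP, replicate 2, 3 or 4 of 2D shAnkrd35, replicate 1, 2 or 3 of 3D shGFP or replicate 1, 2, 3 or 4 of 3D shAnkrd35 (0.77 to 0.96, adjusted p = 0.0505 to 0.0857).

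Pold1 (chromosome 7, 44532746 to 44548849, minus strand), the catalytic subunit of polymerase delta, rose with shAnkrd35 in both growth types and fell in 3D with both hairpins. Its levels were 109, 92.4, 116 and 108 CPM with shGFP and 132, 132, 113 and 109.8 with shAnkrd35 in 2D, which overlap (0.20 ± 0.077, adjusted p = 0.0378). That rise was lost without replicate 2 or 4 of 2D shGFP or replicate 1 or 2 of 2D shAnkrd35 (0.13 to 0.21, adjusted p = 0.0548 to 0.144). Removing the GC and length trend also ended it. In 3D they were 63.4, 66, 69.6 and 64.5 CPM and 87.8, 76.7, 84.3 and 73.6 CPM, which do not overlap (0.29 ± 0.077, adjusted p = 0.00949). From 2D to 3D Pold1 changed by -0.68 ± 0.077, adjusted p = 7.1e-07 with shGFP and -0.59 ± 0.077, adjusted p = 3.83e-06 with shAnkrd35. It has the highest GC content of the 44 genes (61%), and these falls were -0.39, adjusted p = 6.56e-06 and -0.25, adjusted p = 0.000914 with the GC trend removed. The primase subunit Prim1 and the polymerase epsilon subunit Pole were not called for the hairpin in either growth type. Both fell in 3D with both hairpins (-0.27 and -0.32 with shGFP, -0.33 and -0.26 with shAnkrd35). Pole passed as a rise for the hairpin in 3D without replicate 1 of 2D shAnkrd35, and both passed in 2D with the GC and length trend removed.

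The clamp, its loader, and the genes for joining and coating single strands make up 10 genes. In 2D with shAnkrd35 7 rose and 0 fell (70% and 0%, all genes 29.0% and 28.8%). In 3D 2 rose and 1 fell (20% and 10%, near the 15.0% and 14.6% of all genes). Pcna (chromosome 2, 132249162 to 132253314, minus strand), the clamp itself, was the most abundant of the 44 genes per length (64.2 CPM per kb). It measured 150.5, 151, 134 and 151 CPM with shGFP against 155, 157, 173 and 179.5 with shAnkrd35 in 2D, and 156, 159, 164 and 165 CPM against 139.5, 147, 144 and 139 for the same order in 3D. With shAnkrd35 it was above all shGFP libraries in 2D (0.18 ± 0.052, adjusted p = 0.00812) and below all of them in 3D (-0.18 ± 0.052, adjusted p = 0.0164). The difference of effects was -0.35 ± 0.074, adjusted p = 0.00184. With the GC trend removed the fall in 3D was -0.096, adjusted p = 0.0819. Growth in 3D raised Pcna with shGFP (0.14 ± 0.052, adjusted p = 0.0284) and lowered it with shAnkrd35 (-0.22 ± 0.052, adjusted p = 0.00136). The rise was lost without replicate 3 of 2D shGFP or replicate 3 or 4 of 3D shGFP (0.095 to 0.13, adjusted p = 0.0642 to 0.117), and it was -0.025, adjusted p = 0.612 with the GC trend removed.

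Lig1 (chromosome 7, 13277283 to 13311433, plus strand), the ligase that joins lagging strand fragments, rose with shAnkrd35 in both growth types. It measured 131, 126, 135 and 134 CPM with shGFP and 199.6, 193, 182 and 168 with shAnkrd35 in 2D (0.49 ± 0.053, adjusted p = 9.97e-07). The 3D values were 106, 113, 116 and 118 CPM with shGFP and 135, 124, 136 and 133 with shAnkrd35 (0.22 ± 0.053, adjusted p = 0.00445), without overlap in either growth type. The rise was smaller in 3D than in 2D (difference -0.27 ± 0.075, adjusted p = 0.0111), a call lost with the GC trend removed (-0.15, adjusted p = 0.116). Its exons overlap Zswim9 on the opposite strand. Fen1 (chromosome 19, 10199132 to 10204169, minus strand), the nuclease that trims those fragments, was the least abundant of the 44 genes, at 2.86, 2.15, 2.67 and 2.38 CPM with shGFP and 4.42, 6.66, 6.59 and 5.15 with shAnkrd35 in 2D (1.14 ± 0.26, adjusted p = 0.00127). In 3D it stood at 2.2, 2.3, 1.43 and 1.61 CPM and 3.75, 2.37, 5.75 and 2.08 CPM, with overlap and with replicates 1 and 3 of shAnkrd35 high (0.77 ± 0.26, adjusted p = 0.0312). That second rise was lost without replicate 3 or 4 of 3D shGFP or replicate 1 or 3 of 3D shAnkrd35 (0.50 to 0.71, adjusted p = 0.0836 to 0.111). Exons of Fen1 overlap Tmem258 on the opposite strand, and how the counting assigned such reads is not given in the sources used here, so its values are uncertain.

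The clamp loader has 5 subunits, of which Rfc2, Rfc3 and Rfc4 rose in 2D with shAnkrd35 (0.21, 0.35 and 0.15). The rise of Rfc4 was lost without replicate 1 or 2 of 2D shGFP, replicate 1, 2 or 3 of 2D shAnkrd35, replicate 3 of 3D shGFP or replicate 2 of 3D shAnkrd35 (0.13 to 0.16, adjusted p = 0.0511 to 0.114). Rfc5 had -0.00032 ± 0.05, adjusted p = 0.996. The large subunit Rfc1 (chromosome 5, 65261850 to 65335670, minus strand) measured 96.4, 125, 122 and 125 CPM with shGFP and 124, 84.3, 83.1 and 103 with shAnkrd35 in 2D, with replicate 1 the lowest of the first group and the highest of the second (-0.26 ± 0.11, adjusted p = 0.0586). Without replicate 1 of 2D shAnkrd35 Rfc1 passed as a fall (-0.37, adjusted p = 0.00247). In 3D it measured 106, 107, 107 and 113 CPM with shGFP and 127, 124, 116 and 138 with shAnkrd35, which do not overlap (0.21 ± 0.11, adjusted p = 0.169). It rose in 3D with shAnkrd35 (0.37 ± 0.11, adjusted p = 0.00765), and its positive difference (0.47 ± 0.16, adjusted p = 0.0302) was lost without replicate 3 or 4 of 2D shGFP, replicate 2 or 3 of 2D shAnkrd35, replicate 1 or 2 of 3D shGFP or replicate 4 of 3D shAnkrd35 (0.40 to 0.47, adjusted p = 0.0517 to 0.0649). The single-strand binding subunit Rpa2 rose in 2D with shAnkrd35 (0.57 ± 0.082, adjusted p = 2.16e-05) and its partner Rpa1 had 0.025 ± 0.054, adjusted p = 0.708. In 3D against 2D with shAnkrd35, 9 of these 10 genes fell and Rfc1 rose (90% and 10%, all genes 36.0% and 34.4%).

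All 4 genes of deoxynucleotide supply rose in 2D with shAnkrd35, and all 4 were called negative for the difference of effects. Of all genes tested 29.0% rose in that comparison and 18.6% were called negative for the difference. Rrm1 and Rrm2 encode the subunits of ribonucleotide reductase, Tyms makes thymidylate and Tk1 salvages thymidine. Rrm2 (chromosome 12, 24708241 to 24714146, plus strand) measured 48.2, 44.4, 49.2 and 44 CPM with shGFP and 57, 63, 72.9 and 66.1 with shAnkrd35 in 2D, with no overlap (0.47 ± 0.063, adjusted p = 1.05e-05). The 3D values were 71.4, 73.9, 70.5 and 72.9 CPM with shGFP and 64.7, 67.4, 70.7 and 64.4 with shAnkrd35 (-0.11 ± 0.063, adjusted p = 0.201), so that only the 2D shGFP group was low. Its difference of effects had the smallest p of the 44 genes (-0.59 ± 0.089, adjusted p = 0.000153). Growth in 3D raised Rrm2 with shGFP (0.64 ± 0.063, adjusted p = 1.43e-07) and gave 0.049 ± 0.063, adjusted p = 0.497 with shAnkrd35.

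Tk1 (chromosome 11, 117815526 to 117826092, minus strand) had the same low group: 50.2, 48, 46.3 and 46.1 CPM with shGFP against 48.9, 71.2, 70.9 and 65.5 with shAnkrd35 in 2D, and 69.5, 73, 72.7 and 71 CPM against 61.2, 60.3, 62.9 and 56.2 for the same order in 3D. Replicate 1 of 2D shAnkrd35 lay within the shGFP range and the other 3 above it (0.41 ± 0.088, adjusted p = 0.00083, and 0.54, adjusted p = 1.11e-07 without that replicate). In 3D all shAnkrd35 libraries lay below all shGFP libraries (-0.25 ± 0.088, adjusted p = 0.04), a call lost without replicate 1, 2, 3 or 4 of 3D shGFP or replicate 1, 2, 3 or 4 of 3D shAnkrd35 (-0.27 to -0.22, adjusted p = 0.0504 to 0.105). The difference was -0.66 ± 0.12, adjusted p = 0.000845, and growth in 3D raised Tk1 with shGFP (0.59 ± 0.088, adjusted p = 1.77e-05). Exons of Tk1 overlap Afmid on the opposite strand. Rrm1 (chromosome 7, 102441695 to 102469771, plus strand) measured 157, 152, 153 and 162 CPM with shGFP against 232, 212, 211 and 200.5 with shAnkrd35 in 2D, and 169.9, 171, 187 and 186 CPM against 179.9, 177, 183 and 199.8 for the same order in 3D. Here 2D shAnkrd35 was the high group, above every other library (0.45 ± 0.053, adjusted p = 2.28e-06 for the hairpin in 2D, -0.40 ± 0.074, adjusted p = 0.000755 for the difference). Tyms rose in 2D by 0.36 ± 0.058 and its difference was -0.28 ± 0.083, adjusted p = 0.0153.

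Of the 3 genes of G1 and S control, 1 rose and 1 fell in 2D with shAnkrd35 (33.3% each, all genes 29.0% and 28.8%). The 2 that moved encode the E cyclins, which activate the kinase Cdk2. Ccne1 (chromosome 7, 38097984 to 38107534, minus strand) measured 9.46, 8.85, 8.19 and 9.78 CPM with shGFP and 13.1, 18.9, 15.6 and 16.5 with shAnkrd35 in 2D, without overlap (0.81 ± 0.095, adjusted p = 2.71e-06). In 3D it measured 10.4, 11.4, 10.7 and 10.5 CPM and 11.4, 12.4, 11.9 and 10.8 CPM (0.11 ± 0.095, adjusted p = 0.433), and the difference was -0.70 ± 0.13, adjusted p = 0.00102. Growth in 3D lowered Ccne1 with shAnkrd35 (-0.45 ± 0.095, adjusted p = 0.000452), a call lost with the GC trend removed (-0.17, adjusted p = 0.0773), and raised it with shGFP (0.25 ± 0.095, adjusted p = 0.0295), a call lost without replicate 2 or 3 of 2D shGFP or replicate 2 or 3 of 3D shGFP (0.20 to 0.25, adjusted p = 0.0518 to 0.0959).

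Ccne2 (chromosome 4, 11191351 to 11204779, plus strand) measured 3.18, 8.38, 5.24 and 6.79 CPM with shGFP and 3.5, 2.71, 3.04 and 4.01 with shAnkrd35 in 2D, where the groups overlap because replicate 1 of shGFP was low (-0.74 ± 0.21, adjusted p = 0.0073). The 3D values were 12.3, 11.8, 12.6 and 13.9 CPM with shGFP and 11, 12.2, 9.75 and 12.2 with shAnkrd35 (-0.17 ± 0.21, adjusted p = 0.619). All 3D libraries lay above all 2D libraries. The rises in 3D were 1.17 ± 0.21, adjusted p = 0.000152 with shGFP and 1.75 ± 0.21, adjusted p = 2.55e-06 with shAnkrd35. Ccne2 has the lowest GC content of the 44 genes (36.3%). With the GC and length trend removed its fall in 2D was -0.18, adjusted p = 0.137, and its rises in 3D were 0.38, adjusted p = 0.00238 and 0.52, adjusted p = 0.000143. Exons of Ccne2 overlap Ints8 on the opposite strand.

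E2f1 (chromosome 2, 154559407 to 154569892, minus strand), a transcription factor of S phase entry, had the smallest p of the 44 genes for growth type with both hairpins. Its levels were 65.6, 57.2, 64.2 and 62.1 CPM in 2D shGFP and 37.1, 34.6, 34 and 30.9 in 3D shGFP (-0.87 ± 0.06, adjusted p = 1.48e-09). With shAnkrd35 they were 62.5, 67.7, 62.1 and 59.7 CPM in 2D and 38.4, 36.1, 37.3 and 35.6 in 3D (-0.77 ± 0.06, adjusted p = 9.61e-09), and no 3D library reached the lowest 2D library. For the hairpin in 2D the log2 fold change was 0.02, with a 95% interval of -0.11 to 0.14. With the GC and length trend removed it was called lower (-0.16, adjusted p = 0.0101), and the difference of effects was then called positive (0.21, adjusted p = 0.0228). Its GC content is 58.3%. In 3D it was 0.11 ± 0.06, adjusted p = 0.177.

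**Figure D4:**
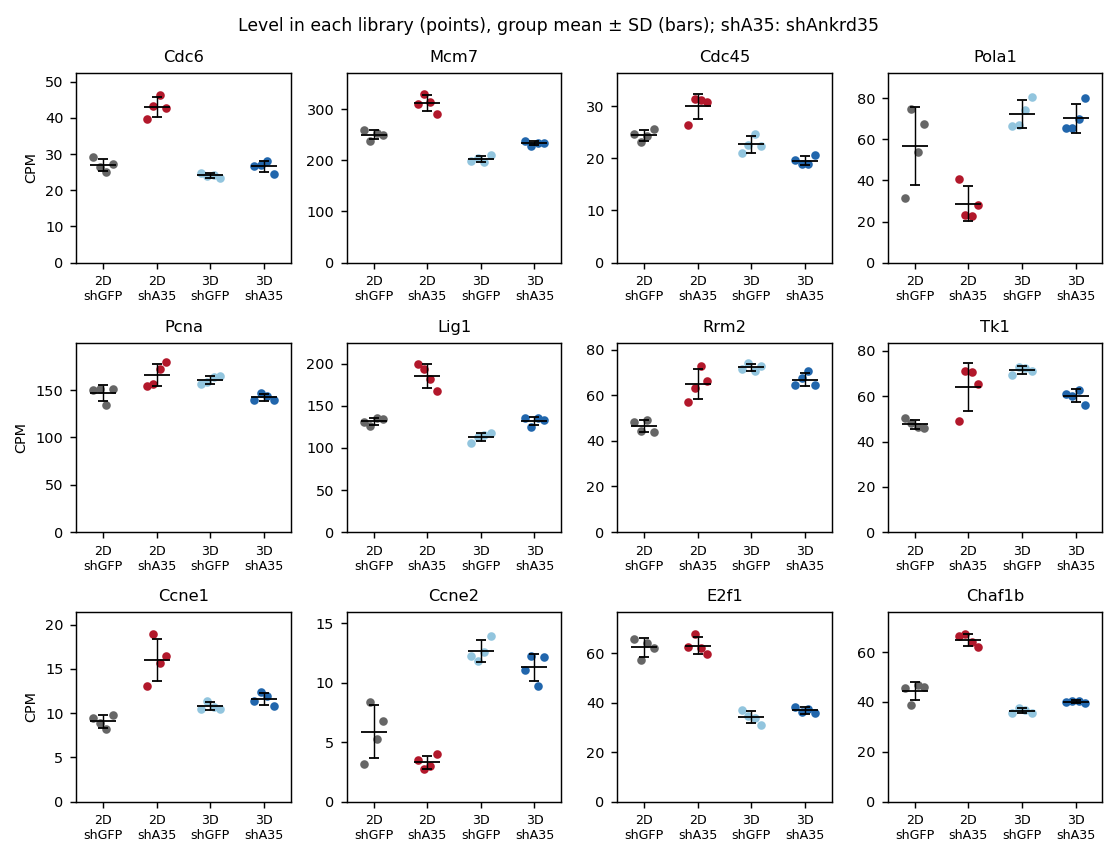
Level in CPM of 12 of the genes in each library (points; replicates 1 to 4 from left to right within a group), with the group mean and SD (black lines), from 0. Cdc6, Lig1, Ccne1 and Chaf1b are highest in 2D shAnkrd35, E2f1 is lower in both 3D groups, Rrm2 and Tk1 are lowest in 2D shGFP, and Pola1 and Ccne2 are spread widely in 2D shGFP.

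The remaining 6 genes act in chromatin assembly, histone messenger RNA handling, licensing turnover and the checkpoint. Of them 1 rose and 1 fell in 2D with shAnkrd35 (16.7% each, all genes 29.0% and 28.8%). Both of these encode subunits of CAF-1, which places histones on new DNA. Chaf1b (chromosome 16, 93883901 to 93906115, plus strand) measured 45.6, 38.9, 46.6 and 46.2 CPM with shGFP and 66.4, 67.4, 64 and 62.2 with shAnkrd35 in 2D, without overlap (0.55 ± 0.054, adjusted p = 3.55e-07). In 3D it measured 35.5, 37.6, 36.9 and 35.6 CPM and 40.1, 40.5, 40.5 and 39.4 CPM, also without overlap but not called (0.14 ± 0.054, adjusted p = 0.0634). Its difference of effects was -0.41 ± 0.077, adjusted p = 0.000778. Growth in 3D lowered it with both hairpins (-0.28 ± 0.054, adjusted p = 0.000252 with shGFP and -0.69 ± 0.054, adjusted p = 1.1e-08 with shAnkrd35).

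Chaf1a (chromosome 17, 56040439 to 56072289, plus strand) measured 105, 92.7, 102 and 102 CPM with shGFP and 93.9, 93, 88.7 and 83.7 with shAnkrd35 in 2D, with overlap (-0.16 ± 0.047, adjusted p = 0.00924). That small fall was lost with the GC trend removed (-0.075, adjusted p = 0.184), and exons of Chaf1a overlap Ubxn6 on the opposite strand. The 3D values were 63.4, 64, 63.4 and 63 CPM with shGFP and 65.3, 63.7, 66.2 and 61.3 with shAnkrd35 (0.014 ± 0.047, adjusted p = 0.866). All 3D libraries lay below all 2D libraries (-0.66 ± 0.047, adjusted p = 2.4e-09 with shGFP, -0.48 ± 0.047, adjusted p = 1.32e-07 with shAnkrd35). Uhrf1, which guides maintenance DNA methylation, was not called for the hairpin and fell in 3D with both (-0.30 and -0.43). It passed as a rise for the hairpin in 2D without replicate 1 or 4 of 2D shAnkrd35. Library quality weights, or leaving out both 2D libraries numbered 1, also gave that call.

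Clspn (chromosome 4, 126556935 to 126593903, plus strand), the checkpoint mediator claspin, was not called for the hairpin and rose in 3D with both hairpins. It measured 19.8, 25, 22.8 and 23.7 CPM in 2D shGFP and 26.5, 28.1, 29 and 29.6 in 3D shGFP (0.31 ± 0.079, adjusted p = 0.00226). With shAnkrd35 it measured 25.7, 20.7, 23 and 24.3 CPM in 2D and 30.0, 26.4, 29.8 and 27.1 in 3D (0.28 ± 0.079, adjusted p = 0.00484), and the groups did not overlap in either case. Slbp, which binds the stem-loop of histone messenger RNA, fell with shAnkrd35 in 3D (-0.18 ± 0.062, adjusted p = 0.0405), a call lost with the GC trend removed (-0.084, adjusted p = 0.249) and without replicate 1, 3 or 4 of 3D shGFP or replicate 3 or 4 of 3D shAnkrd35 (-0.18 to -0.14, adjusted p = 0.0719 to 0.118). Dtl, the adaptor that sends Cdt1 for degradation in S phase, was called in none of the 5 comparisons on the deposited values. With the GC and length trend removed it was called in 4: higher for the hairpin in 2D (0.25, adjusted p = 0.000138) and in 3D (0.15, adjusted p = 0.0144), and lower in 3D against 2D with shGFP (-0.52, adjusted p = 4.45e-09) and with shAnkrd35 (-0.62, adjusted p = 5e-10). Its GC content is 41.4%.

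Other genes around replication, on lists that hold none of the 44, were read beside them. Of 41 further replication factors 10 rose and 11 fell in 2D with shAnkrd35 (median 0.06), shares of 24.4% and 26.8% that stand beside 29.0% and 28.8% of all genes. Among them the ribonuclease H2 subunit Rnaseh2c rose (0.93 ± 0.08, adjusted p = 6.65e-08), as did the nuclease Dna2 (0.67) and the histone chaperone Rbbp4 (0.32). In 3D 2 rose and 7 fell with shAnkrd35 (4.88% and 17.1%, all genes 15.0% and 14.6%), with Gmnn, the inhibitor of Cdt1, lower by limma's test (-0.81 ± 0.09, adjusted p = 4.74e-06), Pold4 lower (-0.65) and Recql4 higher (0.34). From 2D to 3D 18 rose and 12 fell with shGFP (43.9% and 29.3%, all genes 35.2% and 32.1%; median 0.16), and 14 rose and 17 fell with shAnkrd35 (34.1% and 41.5%, all genes 34.4% and 36.0%; median -0.10). Ssrp1, a subunit of the histone chaperone FACT, fell with both (-0.74 and -0.56).

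Genes of G2 and mitosis give the phase after replication. Of 25 such genes 14 rose and 3 fell in 2D with shAnkrd35 (median 0.37), led by Bub1b (0.80), Espl1 (0.65) and Cdc20 (0.85), and 2 rose and 2 fell in 3D. The difference of effects was called negative in 14 and positive in 2 (median -0.45). From 2D to 3D with shGFP 23 rose and 1 fell (median 0.81), among them Plk1 (1.03), Cdc20 (1.08) and Ccnb1 (0.95), where 9 of the 44 replication genes rose and 19 fell. With shAnkrd35 15 rose and 3 fell (median 0.19). As shares of the 25 genes, higher and lower, these are 56% and 12% for the hairpin in 2D (all genes 29.0% and 28.8%) and 8% and 8% in 3D (15.0% and 14.6%). They are 8% and 56% for the difference (17.1% and 18.6%), 92% and 4% for growth with shGFP (35.2% and 32.1%), and 60% and 12% with shAnkrd35 (34.4% and 36.0%). Whether the 2 lists differ was not tested, and genes of a list are not independent replicates.

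Of 31 genes of E2F, RB and G1 control 27 were measured, and 10 rose and 6 fell in 2D with shAnkrd35 (37.0% and 22.2%, near the 29.0% and 28.8% of all genes). Cdk6, a kinase of G1, had the smallest p (-1.37 ± 0.10, adjusted p = 1.36e-08), followed by the phosphatase Cdc25a (0.66) and cyclin Ccnd2 (-0.51). In 3D 3 rose and 7 fell (11.1% and 25.9%, all genes 15.0% and 14.6%), with Cdc25a higher (0.49) and Cdk6 lower (-0.70). For growth type the smallest p belonged with both hairpins to Ccnd2, Ccnd1 and the inhibitor Cdkn1a, all lower in 3D (log2 fold change -2.38, -1.38 and -1.39 with shGFP, and -1.72, -1.22 and -1.28 with shAnkrd35). Over the list 6 rose and 6 fell with shGFP (22.2% each, all genes 35.2% and 32.1%), and 8 rose and 12 fell with shAnkrd35 (29.6% and 44.4%, all genes 34.4% and 36.0%). The difference of hairpin effects was called positive in 5 and negative in 9 (18.5% and 33.3%, all genes 17.1% and 18.6%).

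Nucleotide synthesis beyond the 4 genes above gave 8 rises and 3 falls of 22 in 2D with shAnkrd35 (36.4% and 13.6%, all genes 29.0% and 28.8%; median 0.06), with Shmt1 (0.56), Umps (0.36) and Dck (0.45) first, and 4 rises and 2 falls in 3D (18.2% and 9.09%, near the 15.0% and 14.6% of all genes). In 3D against 2D it gave 6 rises and 8 falls with shGFP (27.3% and 36.4%, all genes 35.2% and 32.1%) and 5 rises and 14 falls with shAnkrd35 (22.7% and 63.6%, all genes 34.4% and 36.0%). The purine enzyme Impdh2 fell with both hairpins (-0.77 and -0.85) and Cmpk1 rose with both (1.11 and 1.03). Of 17 replication checkpoint genes 16 were measured. In 2D with shAnkrd35 6 rose and 4 fell (37.5% and 25%, near the 29.0% and 28.8% of all genes), among them Chek2 (0.50) and Brca2 (-1.06), and in 3D 0 rose and 1 fell, Rad1 (-0.25), where 15.0% and 14.6% of all genes did. From 2D to 3D 7 rose and 2 fell with shGFP (43.8% and 12.5%, all genes 35.2% and 32.1%), and 7 rose and 5 fell with shAnkrd35 (43.8% and 31.2%, all genes 34.4% and 36.0%), where Atr (1.69) and Brca2 (1.36) rose.

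**Figure D5:**
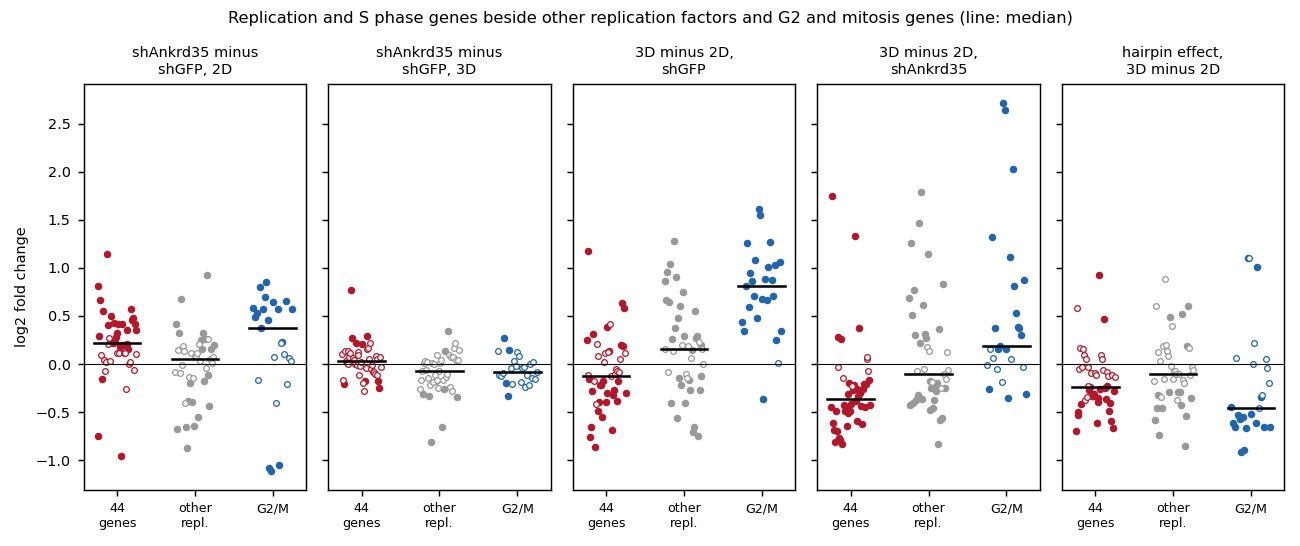
Log2 fold changes (points, 1 per gene; filled for an adjusted p under 0.05) of the 44 replication and S phase genes (red), 41 other replication factors (grey) and 25 G2 and mitosis genes (blue) in the 5 comparisons, with the median of each list as a line. The red and blue medians both lie above 0 for the hairpin in 2D (0.21 and 0.37), and on opposite sides of 0 for 3D against 2D with shGFP (-0.12 and 0.81).

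The 44 genes also differed in how far they moved over the 16 libraries. The SD of the log2 level was largest in Ccne2 (0.86), Fen1 (0.69) and Pola1 (0.65) and smallest in Rpa1 (0.11), Pcna (0.11) and Slbp (0.12). By mean level per kb of exonic length Pcna, Mcm7 (56.4), Mcm5 (46.9) and Uhrf1 (46.6 CPM per kb) were highest and Fen1 (1.4), Orc1 (1.73) and Ccne2 (2.37 CPM per kb) lowest. Exonic length here merges all annotated transcripts of a gene. Of the 44 genes 11 have exons that overlap a measured gene on the opposite strand, and their levels are uncertain for that reason; besides those named, these are Gins2 (Gse1), Rfc4 (Eif4a2) and Rfc5 (Wsb2).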

How the data were processed

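Tools named per the submitters' processing notes are STAR 2.5.1b, Trimmomatic 0.38 and edgeR, with genome mm10. Not given in the sources used here are the counting program, its annotation, whether strand was used and how low genes had been filtered. The values the authors deposited are log2 CPM in 16 columns, 1 per library. From the values, a prior count averaging 2 reads had been added, and once it was taken off 100% of values were whole numbers of reads (to within 0.01 reads). CPM levels in the text are these reads over the effective library size, without the prior. Fold changes include it and so understate changes of low genes.

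The test was limma 3.58.1 (R 4.3.3, statmod 1.5.0; empirical Bayes with trend and robust fitting) on the deposited log2 values of all 16 libraries as 4 group means, for genes with at least 1 CPM in at least 4 libraries (12320, without Ankrd35). Benjamini-Hochberg adjustment ran over all genes within each of 5 contrasts. Every adjusted p in the text is from this fit or, where a setting is named, from limma under that setting. Rose, fell and called mean an adjusted p under 0.05. The contrasts that share a group are not independent. Ankrd35 was compared by exact permutation. Steps were tested on simulated data.

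Gene positions, exonic lengths and GC content came from GENCODE M21 (mm10). Of the table's symbols 12217 matched and 104 did not, and 385 altered symbols were restored. The 44 genes, the other lists and the roles were chosen with earlier results of these data known. Values per library are given for the 6 genes with the smallest p in each 2-group contrast, the 3 in each direction of all 5 contrasts and the first of each role in the 2D hairpin contrast. From each other list up to 3 genes with the smallest p per contrast are named. Some items are not reported here. Alternatives were other filters, priors, scalings, limma-voom, library weights, the 8 libraries compared alone, a replicate block, removal of a GC and length trend (splines with 5 degrees of freedom, for the 99.2% of genes with both values) and leaving out libraries.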

Additional observations from a re-analysis of the deposited data

Results flagged for a closer look

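Within the 176 sets of 4 replicates (44 genes in 4 groups), 11 had a library far from the other 3 by Dixon's test at its 95% critical value, where chance gives about 1 in 20. In 2D shGFP, replicate 2 was lowest for the helicase subunit Mcm2 (236 CPM), for Gins2 (22.3 CPM) and for the chromatin assembly subunit Chaf1b (38.9 CPM). Replicate 1 of the same group was lowest for the clamp loader subunit Rfc1 (96.4 CPM) and for Dtl (48.1 CPM), and replicate 3 for Pcna (134 CPM). In 2D shAnkrd35, replicate 1 was lowest for Cdc45 (26.4 CPM) and highest for the primase subunit Prim1 (44.3 CPM). In 3D shGFP, replicate 1 was lowest for Gins3 (6.23 CPM), and replicate 4 was highest for Rfc1 (113 CPM) and Rfc3 (28.7 CPM). No library of 3D shAnkrd35 stood out in this way.

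The effect of the hairpin label differed between 3D and 2D in 23 genes by the interaction term in limma (adjusted p under 0.05). In licensing genes the log2 difference, 3D minus 2D, was -0.61 in Orc1, -0.40 in Orc6, -0.53 in Cdc6, -0.33 in Mcm3, -0.34 in Mcm4 and -0.31 in Mcm5. For the helicase activators it was -0.24 in Mcm10 and -0.50 in Cdc45, and for polymerase alpha 0.92 in Pola1 and -0.26 in Pola2. The clamp and its loader gave -0.35 in Pcna, 0.47 in Rfc1, -0.25 in Rfc2, -0.37 in Rfc3 and -0.23 in Rfc4. Lig1 had -0.27 and Rpa2 -0.49. Deoxynucleotide supply gave -0.40 in Rrm1, -0.59 in Rrm2, -0.28 in Tyms and -0.66 in Tk1. Ccne1 had -0.70 and Chaf1b -0.41. The cause of these differences was not tested.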

How the results depend on the processing

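Counts of called genes are given as higher and lower, in the order hairpin in 2D (25 and 3), hairpin in 3D (5 and 4), growth type under shGFP (9 and 19), growth type under shAnkrd35 (5 and 33) and difference of effects (2 and 21). Leaving out 1 library at a time gave 23 to 26 and 3 to 4, 3 to 7 and 1 to 5, 7 to 12 and 18 to 21, 4 to 5 and 31 to 34, and 0 to 3 and 18 to 20. Some of these single-library counts, and some with the replicate block given below, moved by over 1.5 times. Among the other settings the counts that did so were these. The hairpin in 2D had 5 lower with library quality weights and 5 without both 2D libraries numbered 1. Among all genes 4250 and 4136 were then lower, in place of 3554. The hairpin in 3D had 10 higher and 7 lower with only the 8 libraries compared, where all genes had 2477 and 2611. With quality weights it had 11 and 7 (all genes 2766 and 2631), and all genes had 1854 and 1801 in the main fit. It had 8 higher with the GC and length trend removed (all genes 2013) and 8 higher without both 2D libraries numbered 1 (all genes 2318). With shGFP, 3D against 2D had 14 higher with scaling to total reads. The difference had 4 higher with the trend removed, 5 with quality weights and 5 without both 2D libraries numbered 1. Among all genes the higher counts were then 2262, 3623 and 3358, in place of 2110. Of called genes only Pcna in 3D against 2D with shGFP (-0.025) and Mcm5 in 3D against 2D with shAnkrd35 (0.052) changed direction, both with the trend removed. The filters, the prior of 0.5 reads, median-of-ratios scaling and limma-voom moved no count by over 1.5 times. Median-of-ratios scaling ended the calls of Pold1 and Rfc4 for the hairpin in 2D, Pcna for growth type under shGFP, and Mcm10 and Rfc4 for the difference. The causes were not tested.

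Replicate numbers did not pair the libraries: over 24 same-numbered pairs the correlation of deviations from group means ran from -0.48 to 0.21 (median -0.01), with 8 over 0.1, and libraries correlated best with their own number in 10 of 48 comparisons. With replicate number as a block the counts were 25 and 3, 5 and 3, 9 and 19, 5 and 33, and 1 and 18. Among all genes that block gave 3499 and 3468, 1748 and 1700, 4259 and 3897, 4204 and 4385, and 1891 and 2121. The block with the GC and length trend removed gave 26 and 3, 8 and 2, 9 and 15, 6 and 27, and 2 and 17, and left Pcna at -0.025 and Mcm5 at 0.052. Under the block alone the difference was no longer called in Orc6, Mcm10, Pola1 and Rfc4, nor the 3D fall of Slbp. How the depth of 13.8 to 28.7 M reads limits the calls was not tested.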
